A study of Mus musculus with 6 samples.

Results

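The ZFP36 genes encode zinc finger proteins that bind mRNA and speed its decay, and 3 of them, Zfp36, Zfp36l1 and Zfp36l2, were followed here in URE cells, a mouse myeloid leukaemia line. They were found as the probe sets whose platform annotation named 1 of these symbols alone, which gave 3 probe sets for 3 of the 19938 genes measured. The family was chosen by the measured difference between the groups, since Zfp36l1 was already seen to stand among the largest. The values of these 3 genes are therefore a description and carry no test. Both groups were URE cells infected with the pSIH1-H1-copGFP lentiviral vector, which also encodes a green fluorescent protein, and sorted for fluorescence. In the shControl group (n = 3 arrays) the vector carried a hairpin against luciferase, and in the shHLX group (n = 3 arrays) a hairpin against Hlx, the gene of a homeobox transcription factor. URE cells are known to derive from mice that lack an upstream regulatory element of Spi1, the gene of the myeloid factor PU.1. Both groups share this background, and the series holds no cells with the element for comparison. All 6 arrays came from this single line, grown with cytokine-containing supernatants, and 10 ng of RNA per sample was amplified before labelling. The study asked what Hlx does in blood cell differentiation and in leukaemia.

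Proteins of this family carry a pair of CCCH zinc fingers that bind AU-rich elements near the end of short-lived mRNAs. They bring the CCR4-NOT deadenylase to the bound message, after which the poly(A) tail is shortened and the message is decapped or degraded from its end. Zfp36 encodes tristetraprolin, the founding member, known as an immediate early gene and for limiting Tnf and other inflammatory messages in myeloid cells. Zfp36l1 and Zfp36l2 encode its close relatives, the butyrate response factors, which are known to hold developing lymphocytes in quiescence, and loss of both in thymocytes leads to leukaemia in mice. Zfp36l2 is also known for its need in blood stem and erythroid progenitor cells. The p38 kinase and its substrate MK2 phosphorylate these proteins, 14-3-3 proteins then bind them, and their decay activity is restrained.

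Values are log2 signals of probe sets, so a difference of 1 is a doubling of signal. The 6 arrays had medians of 7.02 to 7.10. The second principal component (18.1% of the variance) separated shControl 1 and shHLX 3 from the rest of their own groups, so results are also given without this pair of arrays where that changes them. Over all genes limma called 6.18% (3.75% higher and 2.43% lower on the arrays labelled shHLX), and the groups did not overlap for 26.2% (14.7% higher and 11.4% lower). Hlx itself gave 10.21, 10.12 and 10.20 on the shControl arrays and 10.08, 10.06 and 10.17 on the arrays labelled shHLX, with overlap. The difference was -0.07 (limma adjusted p = 0.479), and by an exact permutation test, two-sided, p was 0.2 where 0.1 is the smallest possible. The labelled knockdown is thus not seen in Hlx mRNA on these arrays, and every direction below rests on the labels.

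Zfp36l1 differed most of the 3 genes. Its probe set (10401238, Entrez gene 12192) read 6.45, 6.64 and 6.10 on the shControl arrays and 9.29, 8.99 and 9.38 on the arrays labelled shHLX. Every shHLX array was far above every control array. The gap between the lowest shHLX and the highest control value was 2.36, against a spread of 0.53 among the controls and 0.39 among the shHLX arrays. The group means were 6.40 ± 0.27 and 9.22 ± 0.20 (SD, n = 3 each), a difference of 2.82 (SE 0.15), or 7.08-fold. By size this was number 6 among the rises of all 19938 genes. No background readings were used here, so it is unknown whether the control signal lay above background, and the fold is a ratio of signals. Arrays of RNA from many sorted cells together also cannot tell more RNA per cell from more cells with the transcript.

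Zfp36l2 stood slightly lower on the arrays labelled shHLX. Its probe set (10453272, Entrez gene 12193) read 12.77, 12.78 and 12.80 on the shControl arrays and 12.52, 12.57 and 12.54 on the arrays labelled shHLX. The groups did not overlap, as for 26.2% of all genes, and the gap between them was 0.20. The means were 12.78 ± 0.016 and 12.55 ± 0.026 (SD, n = 3 each), a difference of -0.24 (SE 0.041), so the shHLX signal was 0.848 of the control signal. The difference was small but wide against the replicates, which spanned 0.030 in the controls and 0.053 on the shHLX arrays.

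Zfp36 was level. Its probe set (10561453, Entrez gene 22695) read 8.46, 8.27 and 8.38 on the shControl arrays and 8.41, 8.29 and 8.40 on the arrays labelled shHLX. All 3 shHLX values lay within the range of the controls. Both means were 8.37, with an SD of 0.098 in the controls and 0.070 on the shHLX arrays (n = 3 each), and the difference was -0.0031 (SE 0.063). The sign of so small a value changed with single arrays, from -0.055 without shControl 2 to 0.042 without shControl 1.

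**Figure D1:**
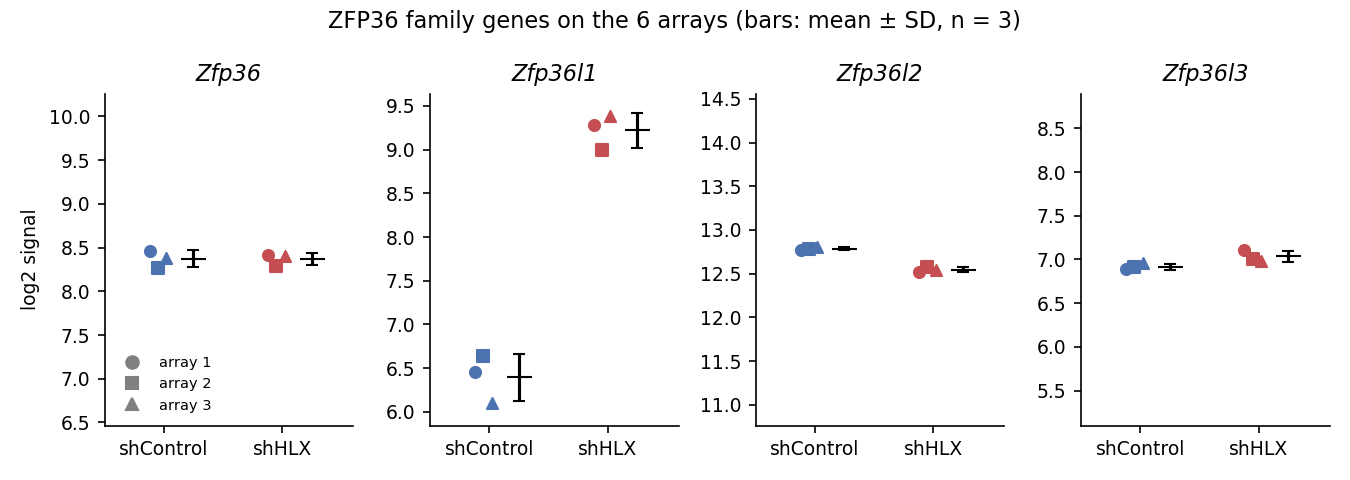
Log2 signal (y axis, the same span in each panel) of the 4 ZFP36 family genes on the 3 shControl and 3 shHLX arrays; symbols give the array number and bars the mean ± SD. Zfp36l1 is 2.82 higher on the shHLX arrays, Zfp36l2 is 0.24 lower with narrow replicates, and Zfp36 overlaps.

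The fourth mouse gene of the family, Zfp36l3, is known from the placenta and was outside the chosen members. It read 6.89, 6.91 and 6.96 on the shControl arrays and 7.11, 7.01 and 6.99 on the arrays labelled shHLX. The difference of 0.12 (SE 0.049) was not called over all genes (limma adjusted p = 0.248).

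The 3 members also differed in how closely their replicates agreed. The SD within groups was 0.24 for Zfp36l1, 0.085 for Zfp36 and 0.022 for Zfp36l2, where the median gene had 0.073. Ranked among all genes, these stood at percentiles 99.5, 60.4 and 3.31. Zfp36l1 was thus among the most variable genes between replicate arrays and Zfp36l2 among the steadiest. These ranks take no account of signal level, where Zfp36l2 stood at percentile 99.2, Zfp36 at 61.1 and Zfp36l1 at 55.1. Another bright gene, Pabpc1, had SDs of 0.013 in the controls and 0.0097 on the shHLX arrays. The narrow replicates of Zfp36l2 are therefore not shown to be particular to it. For Zfp36l1 the low array in the control group was shControl 3, 0.29 below its group mean, and on the shHLX side shHLX 2, 0.23 below. Without shControl 1 and shHLX 3 the differences were 2.77 for Zfp36l1, -0.24 for Zfp36l2 and 0.025 for Zfp36.

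**Figure D2:**
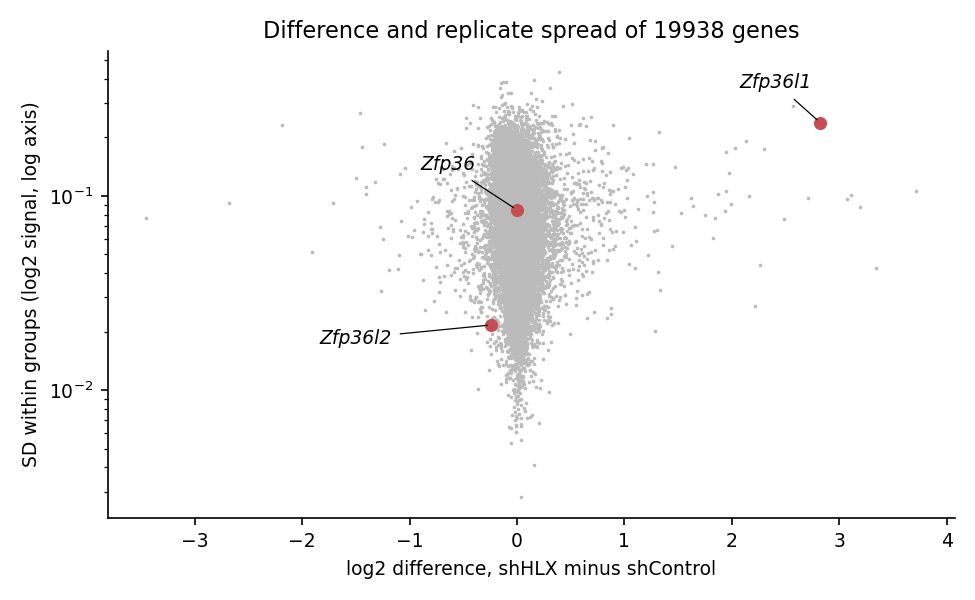
The log2 difference between the groups (x axis, shHLX minus shControl) against the SD within groups (y axis, log scale) for 19938 genes, 1 grey point each, with the 3 members in red. Zfp36l1 lies at the far right and high, Zfp36l2 low and just left of 0, and Zfp36 in the middle of the cloud.

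The start-site regions of members are shown to set sequences beside readings that differ so much. Of the 3 members, 2 matched the table of start sites by symbol, Zfp36 and Zfp36l1, and Zfp36l2 did not. The 250 bases before the annotated start were taken from RefSeq (build GRCm38.p6), where both genes lie on the minus strand, Zfp36 at chr7:28379229-28379478 and Zfp36l1 at chr12:80113014-80113263. Sequences are written 5′ to 3′ along the gene, with capitals marking every match to 6 motifs searched on both strands.
Zfp36: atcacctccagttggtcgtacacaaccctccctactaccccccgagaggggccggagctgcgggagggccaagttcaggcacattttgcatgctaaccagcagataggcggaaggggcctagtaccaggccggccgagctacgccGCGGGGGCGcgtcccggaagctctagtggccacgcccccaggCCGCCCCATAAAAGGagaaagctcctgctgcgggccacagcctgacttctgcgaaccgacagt
Zfp36l1: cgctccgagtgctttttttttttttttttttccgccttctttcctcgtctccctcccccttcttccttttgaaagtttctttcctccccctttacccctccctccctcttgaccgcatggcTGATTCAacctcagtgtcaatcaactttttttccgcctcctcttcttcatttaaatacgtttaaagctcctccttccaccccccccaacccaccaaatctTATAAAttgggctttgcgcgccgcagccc
The motifs were TATAAA (the TATA box), the CArG box (bound by serum response factor), GGGCGG (GC box), GCGNGGGCG (EGR) and TAATTA (homeodomain proteins). The last was TGANTCA, an AP-1-like pattern that is looser than the AP-1 site, since it takes any base in the middle. Zfp36 held a CArG box 58 to 49 bases before the start, a GC box on the other strand that shares 1 base with it, and an EGR match 105 to 97 bases before the start. Zfp36l1 held a TATA box 29 to 24 bases before the start and a match to the looser TGANTCA pattern 129 to 123 bases before it. That match read TGATTCA, so it is not called an AP-1 site here. Of all 32851 windows of this length, 1.47% held the CArG box, 32.7% GGGCGG, 4.70% GCGNGGGCG, 12.4% TATAAA, 6.75% TGANTCA and 4.84% TAATTA. These are matches of letters, not binding sites shown in these cells.

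Genes whose array pattern was most like each member were named by the Pearson correlation over the 6 arrays. For Zfp36l1 they were Ccdc85a (r = 0.9996), the cytokine receptor gene Il17rb (0.9990) and Wsb2 (0.9989). Their own differences were much smaller, at 0.65, 0.66 and 0.44. For Zfp36l2 they were Ifitm7 (0.998), the homeobox gene Pitx1 (0.998) and Fam221a (0.997), with differences of -1.40, -0.80 and -0.86. Zfp36l2 was therefore the shallowest of that set. For Zfp36, whose groups overlap, they were Cdo1 (0.979), Ppp5c (0.974) and Flot1 (0.973), with differences between 0.0086 and 0.024. The sets of Zfp36l1 and Zfp36l2 share the split between the groups, which alone gives high correlations, and the choice of the highest among all genes fixes the likeness within groups too.

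The genes beside the members did not share the rise of Zfp36l1. On its flanks, the nearest genes with a probe set of their own were Rad51b (-0.13) and Zfyve26 (0.01) on one side and Actn1 (-0.37) and Dcaf5 (0.14) on the other. Actn1, which encodes the actin crosslinker alpha-actinin, fell from 10.62, 10.64 and 10.65 to 10.20, 10.34 and 10.26 (limma adjusted p = 0.00405), and the other 3 were not called (adjusted p = 0.211 to 0.916). Beside Zfp36l2, Plekhh2 rose from 9.42, 9.47 and 9.39 to 9.97, 9.98 and 10.00, which is 1.47-fold (95% interval 1.37 to 1.58, limma adjusted p = 0.000244). Mta3 (0.0053), Haao (0.07) and Thada (0.13) at that locus were not called, nor were Plekhg2 (-0.01), Supt5 (0.11), Med29 (0.15) and Paf1 (0.05) around Zfp36.

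**Figure D3:**
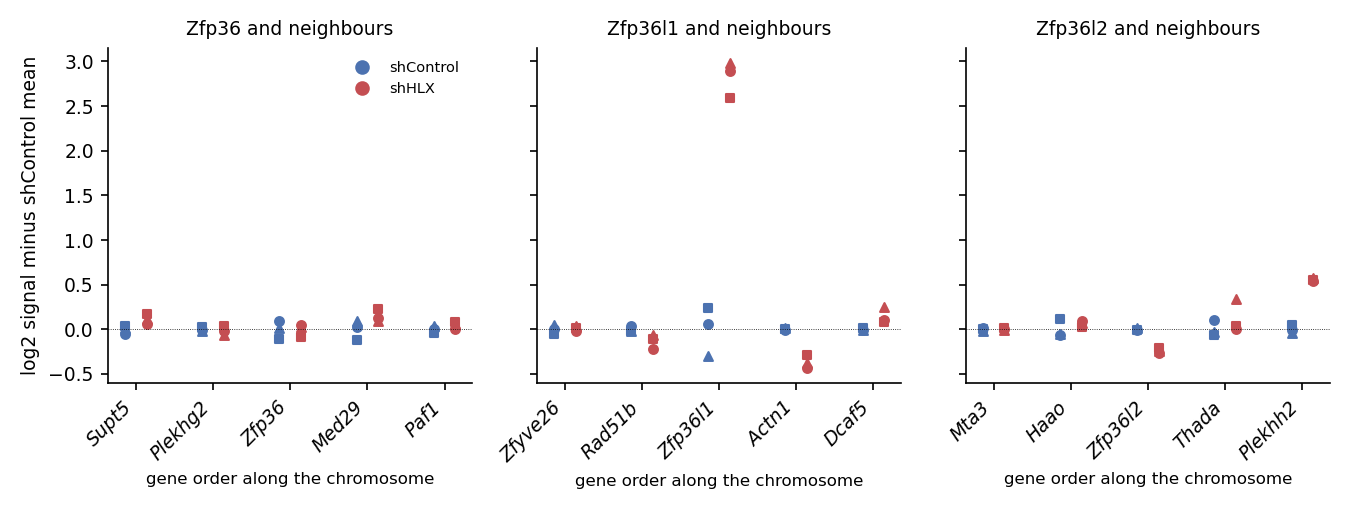
Log2 signal minus the shControl mean of the same gene (y axis) for each member and its 2 nearest measured genes on either side, in chromosome order (x axis), with 1 point per array. Only Zfp36l1 itself stands above 2 in its panel, while Actn1 beside it lies below 0 on all 3 shHLX arrays.

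Of 11 genes of the CCR4-NOT complex, the deadenylase that the family recruits, limma called 0, where 6.18% of all genes were called. The scaffold gene Cnot1 differed by -0.0073 and the catalytic subunit gene Cnot7 by 0.04, with a range over the complex from -0.12 (Cnot6) to 0.16 (Cnot11) and a median of 0.05, against -0.01 over all genes. At an unadjusted p under 0.05 there were 3 genes, and limma with a variance trend on signal intensity called 2, both higher, where that fit called 11.3% of all genes. For 5 of the 11 the groups did not overlap (4 higher and 1 lower), or 45.5%, beside 26.2% of all genes, and 8 of the 11 differences were positive. A list of 11 is too short for 0 calls to be read against 6.18%.

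Genes of the later steps were not called either. Among 7 other deadenylase and poly(A) binding genes limma called 0, with 0 at an unadjusted p under 0.05 and 0 with the intensity trend. Pabpc1, which encodes the main cytoplasmic poly(A) binding protein, differed by -0.06. Of 16 decapping and 5'-3' decay genes limma called 0, with 2 at an unadjusted p under 0.05 and 2 with the trend (1 higher and 1 lower). The decapping enzyme gene Dcp2 differed by -0.04 and the exonuclease gene Xrn1 by 0.13, and the widest differences were those of the scavenger decapping gene Dcps (-0.26) and of Edc3 (0.17). Of 14 genes of the RNA exosome and its cofactors limma called 0, with 2 at an unadjusted p under 0.05 and 1 with the trend, the nuclease gene Exosc10 differed by -0.0041, and the widest difference was that of the cofactor gene Ttc37 (0.21). The groups did not overlap for 28.6%, 6.25% and 28.6% of these 3 lists, beside 26.2% of all genes. The medians of these 3 lists were 0.03, 0.03 and 0.02. Over all genes limma called 6.18%, and 11.3% with the trend. Lists of 7, 16 and 14 genes are too short for 0 calls to be read against those shares.

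Of 18 genes of other proteins that read regulatory elements in mRNA, limma called 1 higher and 0 lower, or 5.56% beside the 6.18% of all genes. The groups did not overlap for 33.3% of the list (6 higher and 0 lower), beside 26.2% of all genes (14.7% higher and 11.4% lower). At an unadjusted p under 0.05 there were 4 genes. A list of 18 is too short to be read against these shares. The called gene was Zc3h12a, which encodes the endonuclease regnase-1, a separate brake on inflammatory messages. It read 9.07, 9.10 and 8.95 on the shControl arrays and 9.35, 9.32 and 9.36 on the arrays labelled shHLX, with no overlap. The rise was 1.24-fold (95% interval 1.14 to 1.34, limma adjusted p = 0.0118). The call was lost without shHLX 1 (adjusted p = 0.0567) and without both shControl 1 and shHLX 3 (0.062). Elavl1, which encodes the stabilising factor HuR, read 11.56, 11.60 and 11.58 against 11.61, 11.67 and 11.65 and was not called (0.06, limma adjusted p = 0.472). The regnase relatives Zc3h12b, Zc3h12c and Zc3h12d and the roquin genes Rc3h1 and Rc3h2 were not called either, between -0.10 and 0.12. Elavl1 and Rc3h2 were higher without overlap, while the groups overlapped for Rc3h1 and the regnase relatives.

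Genes of the kinases, phosphatases and 14-3-3 proteins that act on the family gave 1 call among 21, or 4.76%, beside 6.18% of all genes. The groups did not overlap for 28.6% of the list (3 higher and 3 lower), beside 26.2% of all genes. Mapk14, which encodes p38 alpha, differed by 0.03 and Mapkapk2, which encodes MK2, by -0.03, both with overlapping groups. Dusp1, which encodes a phosphatase that switches p38 off, differed by -0.11 (limma adjusted p = 0.341). Ywhab, a 14-3-3 gene, rose from 11.48, 11.51 and 11.48 to 11.72, 11.69 and 11.67, which is 1.16-fold (95% interval 1.08 to 1.23, limma adjusted p = 0.0238). That call was lost without any 1 of 5 arrays, all but shHLX 3 (adjusted p 0.0652 to 0.110), and without both shControl 1 and shHLX 3 (0.101). The 14-3-3 gene Ywhaz differed by -0.14, lower without overlap, and was not called (limma adjusted p = 0.106).

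Of 41 genes reported elsewhere as mRNA targets of ZFP36 proteins, 3 rose and 1 fell, and 37 were not called. This was 9.76% called, beside 6.18% of all genes, and the list's median was -0.03, beside -0.01 over all genes. Ptgs2, which encodes the prostaglandin synthase COX-2, read 7.29, 7.19 and 7.17 on the shControl arrays and 7.85, 7.83 and 7.85 on the arrays labelled shHLX. It rose 1.54-fold (95% interval 1.43 to 1.66, limma adjusted p = 0.000202). Pim1, the gene of a survival kinase, read 10.75, 10.83 and 10.71 against 11.23, 11.27 and 11.23 and rose 1.39-fold (1.29 to 1.51, limma adjusted p = 0.000876). Both genes were clear of overlap and passed whichever array was left out.

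The other calls among the targets were small and lay near the threshold of 0.05, and most were lost with 1 array fewer. Hif1a, the gene of the hypoxia-inducible factor, read 11.77, 11.70 and 11.70 against 11.91, 11.93 and 11.94, a rise of 1.15-fold (1.08 to 1.24, limma adjusted p = 0.0297). The call was lost without any 1 of 5 arrays, all but shControl 1 (adjusted p 0.0841 to 0.136). Its difference stayed between 0.19 and 0.23 with single arrays left out. Ccnd3, which encodes cyclin D3, read 11.23, 11.16 and 11.17 against 10.996, 10.97 and 10.88, a fall by 0.24 (log2, SE 0.049, limma adjusted p = 0.0299). The call was lost whichever array was left out (adjusted p 0.0625 to 0.106), while the difference stayed between -0.26 and -0.20. Without both shControl 1 and shHLX 3 the list held 2 calls, Ptgs2 and Pim1, and when the variance model followed signal intensity it held 12 of 41 (7 higher and 5 lower), where that fit called 11.3% of all genes. The groups did not overlap for 17 of the 41 (9 higher and 8 lower), or 41.5%, beside 26.2% of all genes.

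Other targets were not called, among them 3 of the 4 marked as key genes of the list (Ccnd3 being the called one). Tnf, the classic tristetraprolin target, read 7.25, 7.25 and 7.54 on the shControl arrays and 7.52, 7.33 and 7.26 on the arrays labelled shHLX, so the groups overlapped and the difference was 0.02 (SE 0.098). The 95% confidence interval ran from 0.870-fold to 1.19-fold. Bcl2 differed by -0.13 (limma adjusted p = 0.142) and Myc by -0.12 (0.163). For both genes all 3 shHLX values lay below all 3 control values, and with an intensity trend both were called lower (adjusted p = 0.00934 and 0.00452). Higher without overlap but not called were Il10 (0.21, limma adjusted p = 0.0597), Ccl3 (0.21, 0.0679) and Notch1 (0.14, 0.117). The cytokine and chemokine genes Il6 (0.02), Il1b (-0.09), Csf2 (-0.13) and Cxcl2 (-0.05) overlapped and were not called. Il6, Il10 and Cxcl2 were dim, at signal percentiles 1.22, 7.69 and 14.2, so their readings may be background and say little about these messages.

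**Figure D4:**
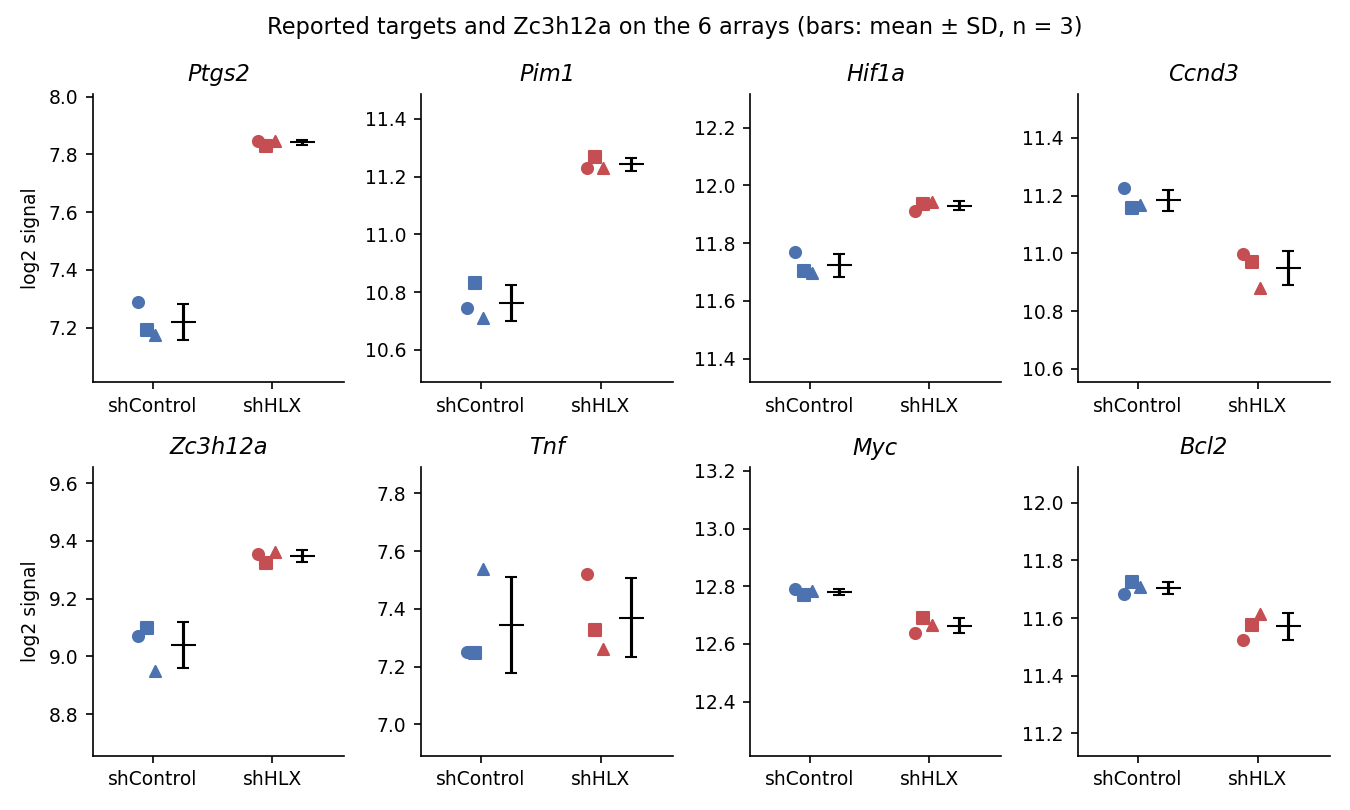
Log2 signal (y axis, a span of 1 in each panel) on the 3 shControl and 3 shHLX arrays for 7 reported targets and for Zc3h12a; symbols give the array number and bars the mean ± SD. Ptgs2, Pim1, Hif1a and Zc3h12a are higher on all 3 shHLX arrays, Ccnd3, Myc and Bcl2 lower, and Tnf overlaps.

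Zfp36 belongs to the class of immediate early genes. Of 25 others, limma called 3 higher and 2 lower (20.0%, beside 6.18% of all genes), 20 were not called, and the median was -0.01. The groups did not overlap for 44% of the list (6 higher and 5 lower), beside 26.2% of all genes. The list is short and was chosen with earlier results of these data known, so no conclusion is drawn from these shares. Egr1, which encodes a zinc finger factor of the EGR type whose motif is marked in the Zfp36 sequence above, read 8.39, 8.28 and 8.33 on the shControl arrays. On the arrays labelled shHLX it read 7.27, 7.19 and 7.25, a fall by 1.10 (log2, SE 0.048, limma adjusted p = 1.37e-05). Srf, the gene of the serum response factor that binds CArG boxes, was not called.

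Among genes of AP-1 subunits, Fosl2 rose from 10.44, 10.45 and 10.32 to 10.99, 11.04 and 11.09, which is 1.55-fold (95% interval 1.43 to 1.69, limma adjusted p = 0.000337). Fosb fell by 0.40 (log2, SE 0.068, limma adjusted p = 0.0128), and Fos differed by -0.20 and was not called (adjusted p = 0.116). Klf6 rose 1.39-fold (limma adjusted p = 0.000722) and Btg2, which encodes a partner of the CCR4-NOT deadenylase, 1.24-fold (limma adjusted p = 0.00764). Fosb was lost without shControl 3 (adjusted p = 0.0663), and Fosb and Btg2 were lost without both shControl 1 and shHLX 3 (0.0715 and 0.0502). Over all 8 lists, 11 of 148 distinct genes were called (8 higher and 3 lower), or 7.43%, beside the 6.18% of all genes.

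**Figure D5:**
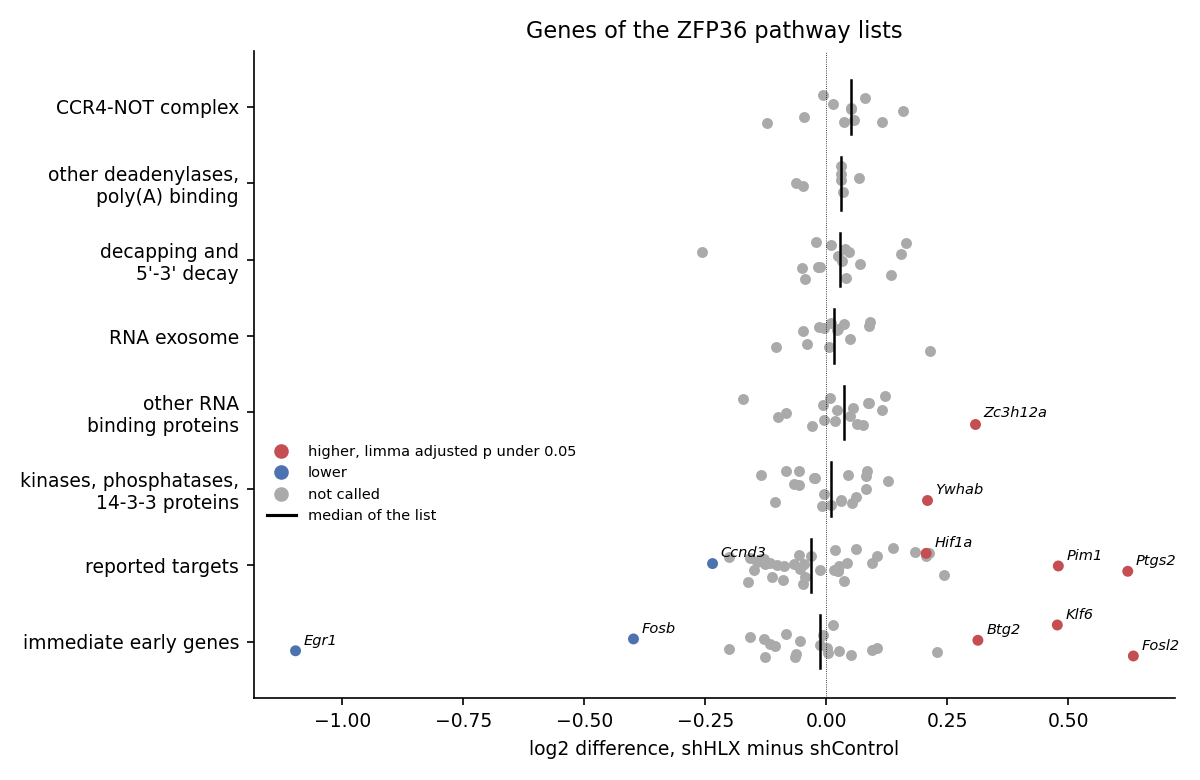
Log2 differences (x axis, shHLX minus shControl) of the measured genes of the 8 pathway lists (rows), with 1 point per gene, colour for the limma call at an adjusted p under 0.05 and a black line at each list's median. The CCR4-NOT, other deadenylase, decapping and exosome lists hold 0 called genes in this fit, where 6.18% of all genes were called. Those lists are too short for 0 calls to be read against that share. The calls sit among the targets, the immediate early genes, Zc3h12a and Ywhab.

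Markers of the labelled cell type read high in both groups, except Ms4a3. Its mean was 9.57 on the shControl arrays and 6.12 on the arrays labelled shHLX. The erythroid gene Gata1 had a mean of 6.26 on those shHLX arrays. Dim probe sets cannot be told from background here, so presence of Ms4a3 in the shHLX group is not shown. Spi1, which encodes the myeloid factor PU.1, had means of 10.34 in both, while Mpo (-1.46) and Ms4a3 (-3.45) fell (limma adjusted p = 0.00151 and 2.02e-07), and the other 6 of 8 myeloid progenitor genes were not called. The mean level of that list was 11.80 to 11.85 on the shControl arrays and 11.15 to 11.25 on the arrays labelled shHLX. Its median difference was only -0.06, so the lower mean level rests mostly on Ms4a3 and Mpo. Limma called 25% of the list, beside 6.18% of all genes. For 4 of the 8 the shHLX arrays were lower without overlap, or 50%, beside 26.2% of all genes without overlap in either direction. Of 11 genes of B-lineage precursors, in which Zfp36l1 is also active, Igll1 (2.21) and Vpreb3 (0.42) rose (limma adjusted p = 2.66e-07 and 0.0121). Vpreb1 (-0.20), Vpreb2 (-0.18) and Rag2 (-0.19) were lower without overlap but not called, nor were Pax5 (-0.12), Ebf1 (-0.04) and Cd79a (-0.09). The mean level of that list was 6.55 to 6.66 against 6.73 to 6.83, while its median difference was -0.04. Limma called 18.2% of the list, and the groups did not overlap for 45.5% (2 higher and 3 lower). Of 7 stromal genes Acta2 rose by 0.92 (limma adjusted p = 6.44e-05), or 14.3% called, and the collagen genes were not called. The mean level of the stromal list was 6.89 to 6.998 against 6.95 to 7.10, with a median difference of -0.04. In the lists for macrophages (8 genes), T cells (6), erythroid cells (5), megakaryocytes (4) and mast cells or basophils (6) limma called 0, with 0, 0, 1, 0 and 2 at an unadjusted p under 0.05. The groups did not overlap for 0, 0, 1, 0 and 3 genes of these lists, all lower. Lists this short cannot be read against the shares over all genes. The part of these differences in the values of the ZFP36 genes was not tested.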

How the data were processed

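RNA of 6 URE samples was hybridised to 1 array each. The authors deposited log2 signals for 35556 probe sets, and the submitters' processing notes name RMA and Affymetrix Power Tools 1.178. The sources used here give neither probe set definitions nor a genome build. Of the probe sets, 21789 named 1 symbol in the platform annotation, and the one with the highest mean stood for a gene, which left 19938 genes. The fit was limma's (version 3.58.1, R 4.3.3) with default eBayes and no covariate, two-sided, Benjamini-Hochberg adjusted over all genes, with a threshold of 0.05. The code was tested on simulated data. Figures used matplotlib 3.10.9.

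The members and lists were chosen with earlier results of these data known. Named genes were the family, Hlx, key members of each list and up to 5 called ones, 2 measured neighbours on each side of a member, and the 3 genes most correlated with it. In the 8 pathway lists, genes without a probe set of their own were not analysed here. Nothing says that replicates were separate cultures, so p-values measure only the spread among these arrays, possibly a technical one. Same-numbered arrays did not deviate together (correlations -0.17, 0.13 and -0.15), so the numbers were not taken as pairs. Between the groups the highest such correlation was 0.34, for shControl 1 and shHLX 3, the arrays set apart on the second principal component. What these arrays share was not tested. The number of arrays limits the precision. The closing section gives the alternatives.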

Additional observations from a re-analysis of the deposited data

How the results depend on the processing

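The difference of Zfp36l1 stayed between 2.68 and 2.94 and that of Zfp36l2 between -0.25 and -0.22 over all alternatives run, which were a second quantile normalization, median centring, a filter at the 25th percentile of signal, the mean of probe sets, an intensity trend, the replicate block and leaving out arrays. Zfp36 ranged from -0.055 to 0.042. Hlx ranged from -0.10 to -0.05 over single arrays left out. Of the 19 other named genes called, 13 were called in each of these alternatives, and of 28 not called, 26 were called in none. With single arrays left out, calls over all genes ranged from 698 to 901 (1233 with all), among targets from 2 to 3, among immediate early genes from 4 to 5, and among CCR4-NOT and other deadenylase genes they stayed 0. They ranged from 0 to 1 for each of decapping, exosome, kinase and 14-3-3, and other RNA binding genes. With the intensity trend there were 2261 calls over all genes, 12 among targets, 3 among kinase and 14-3-3 genes, 2 each among CCR4-NOT and decapping genes and 1 among exosome genes. At an adjusted p under 0.10 the targets held 8 and the decapping genes 1, and above the 25th percentile of signal the decapping genes also held 1. The replicate block, for numbers that do not pair these arrays, gave 800 calls over all genes, 2 among targets and 0 among kinase and 14-3-3 genes. Without both shControl 1 and shHLX 3, an alternative chosen after seeing the data, there were 741 calls over all genes, 3 among immediate early genes, 2 among targets and 0 among kinase and 14-3-3 genes and among other RNA binding genes. Fits with arrays left out hold fewer arrays, and the cause of these shifts was not tested. Signal over background was not available, so dim probe sets cannot be told from background.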
